A study of Homo sapiens with 18 samples.

Results

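The cell adhesion molecules described here are 10 genes of the immunoglobulin superfamily, out of 40266 gene symbols measured in pancreatic ductal adenocarcinoma (PDAC) cells. They are the 4 genes of the L1 family (*L1CAM*, *CHL1*, *NRCAM* and *NFASC*), the neural cell adhesion molecules *NCAM1* and *NCAM2*, the cell adhesion molecules *CADM1*, *CADM3* and *CADM4*, and the melanoma cell adhesion molecule *MCAM*. All 10 symbols were found in the table. The set was selected on expression values of these same libraries, with differences of *L1CAM* and *CADM1* between the cell variants already known, so the levels and differences of its genes are a description and carry no test.

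RNA was measured in 18 libraries of 6 cell variants with 3 replicates each. Panc1 cells come from a primary PDAC and serve as a model of mesenchymal tumour cells, and Panc89 cells come from a lymph node metastasis of PDAC and serve as a model of epithelial tumour cells. From each line the parental population, Holoclone cells (tight colonies with features of cancer stem cells) and Paraclone cells (scattered colonies without them) were profiled, all grown in the same medium without a treatment. Each Holoclone or Paraclone line was grown up from a single cell, so what belongs to the colony type and what belongs to that clone cannot be told apart, and the replicates measure the spread between cultures of the same cells. The deposited values are log2(TPM + 1), where TPM is a transcript's share of the library adjusted for its length, so that levels of different genes can be compared. No read counts were used here and the depth is unknown. Between 12932 and 14199 genes reached 1 TPM in a library, and replicates of a variant correlated with Pearson's r of 0.954 to 0.992 across genes.

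Immunoglobulin adhesion molecules are membrane proteins that bind each other or other receptors on a neighbouring cell through extracellular immunoglobulin domains. Members of the L1 family guide axons in the developing nervous system, anchor to the spectrin skeleton through ankyrins and can be cut from the surface by ADAM metalloproteases. L1CAM is also made by carcinoma cells, pancreatic ones included, where it is known for a part in invasion and drug resistance. CADM1 joins epithelial cells along their lateral walls, is linked to actin through proteins of the 4.1 and MPP families, and is silenced in several carcinomas. MCAM is known from endothelium and melanoma and binds laminins and galectins, and NCAM proteins can carry long chains of polysialic acid that weaken adhesion.

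In the GENCODE annotation of GRCh38, *L1CAM* (ENSG00000198910.14) lies on the reverse strand at chrX:153861514-153886173, with 29 exons in its canonical transcript. *CADM1* (ENSG00000182985.19) lies on the reverse strand at chr11:115169218-115504957 with 12 exons, and *MCAM* (ENSG00000076706.17) on the same strand at chr11:119308529-119321521 with 16 exons, 3.8 Mb further along. *NCAM1*, at chr11:112961275-113278436, ends 1.89 Mb before *CADM1*, so 3 of the 10 genes share this stretch of chromosome 11. *CADM4* lies at chr19:43622368-43639850, *NFASC* at chr1:204828651-205022822 and *NCAM2* at chr21:20998409-21543329. An antisense gene overlaps *L1CAM* and another lies inside *CADM1*. *L1CAM-AS1* reached at most 0.219 TPM in a library, and *CADM1-AS1* was listed at 0 in all 18 libraries.

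Promoter sequence was searched because the lines differed widely in *ZEB1*, a repressor of epithelial genes that binds E-boxes of the form CACCTG. RefSeq (GRCh38.p14) gave 14 promoter windows for 8 of the 10 genes and none for *CADM1* and *NCAM1*. The 250 bases before each start were searched on both strands for CACCTG, which reads CAGGTG on the other strand, and 4 of the 14 windows held it, in *MCAM*, *NFASC*, *CADM4* and *NRCAM*. Of 35116 such windows of all genes, 17.5% held it. Sequence is printed for *MCAM*, *NFASC*, *CADM4* and *L1CAM* only, so windows with a match are over-represented below, as most of the 14 held none. Each sequence below is the part of the window outside annotated exons of its gene, written 5′ to 3′ on the strand of the gene, with the E-box in capitals. The *MCAM* stretch is chr11:119317131-119317380, reverse strand, the *NFASC* stretch is chr1:204828402-204828650, forward strand, the *CADM4* stretch is chr19:43639851-43640100, reverse strand, and the *L1CAM* stretch, which lies within the gene, is chrX:153876040-153876113, reverse strand.
MCAM: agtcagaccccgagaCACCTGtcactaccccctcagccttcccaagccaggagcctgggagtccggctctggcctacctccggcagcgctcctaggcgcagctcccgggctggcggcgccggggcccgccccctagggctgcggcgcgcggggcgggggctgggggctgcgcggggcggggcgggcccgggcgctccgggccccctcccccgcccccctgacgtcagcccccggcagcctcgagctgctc
NFASC: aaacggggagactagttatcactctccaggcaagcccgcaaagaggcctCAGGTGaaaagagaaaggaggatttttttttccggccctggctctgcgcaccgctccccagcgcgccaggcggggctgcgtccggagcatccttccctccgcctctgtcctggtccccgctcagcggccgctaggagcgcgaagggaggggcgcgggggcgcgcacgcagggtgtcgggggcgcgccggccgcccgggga
CADM4: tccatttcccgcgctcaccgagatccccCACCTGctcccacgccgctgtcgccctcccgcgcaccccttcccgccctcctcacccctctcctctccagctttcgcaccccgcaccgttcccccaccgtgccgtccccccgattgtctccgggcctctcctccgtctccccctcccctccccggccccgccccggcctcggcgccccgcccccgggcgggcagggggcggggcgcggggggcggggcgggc
L1CAM: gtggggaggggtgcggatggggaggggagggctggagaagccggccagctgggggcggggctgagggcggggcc
The *MCAM* window, which lies inside an intron of longer *MCAM* transcripts, had 79.6% G or C bases, the *CADM4* window 79.2%, and the printed *NFASC* window 69.6%, against a median of 58.0% over all windows. Another *NFASC* window, chr1:204870612-204870861 (54.8%), and the *NCAM2* window, chr21:21146912-21147161 (56.4%), held no E-box of this form and are not printed. The 2 *L1CAM* windows overlap each other, lie inside the gene, downstream of its outermost annotated start, with 176 of their 250 bases in annotated exons, had 62.4% and 62.8% G or C bases, and held no E-box of this form. A match says only that these letters are present, and binding was not measured.

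Of the 10 genes, 6 reached 1 TPM in at least 3 libraries and entered the fit across 16093 genes, namely *L1CAM*, *CADM1*, *MCAM*, *CADM4*, *NFASC* and *NCAM2*. *L1CAM* had the highest median level, 121 TPM over the 18 libraries, followed by *CADM1* at 18.5 TPM, *CADM4* at 6.87 TPM and *MCAM* at 5.84 TPM. *NFASC* reached 1 TPM in 10 libraries and *NCAM2* in 7, all 7 from Panc89 cells, so *NCAM2* passed the filter through the line in which it was higher. The other 4 genes stayed below 1 TPM throughout. *NRCAM* reached at most 0.618 TPM, *NCAM1* 0.552 TPM, *CHL1* 0.105 TPM and *CADM3* 0.0625 TPM. *CHL1* was listed at 0 in 13 libraries.

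**Figure D1:**
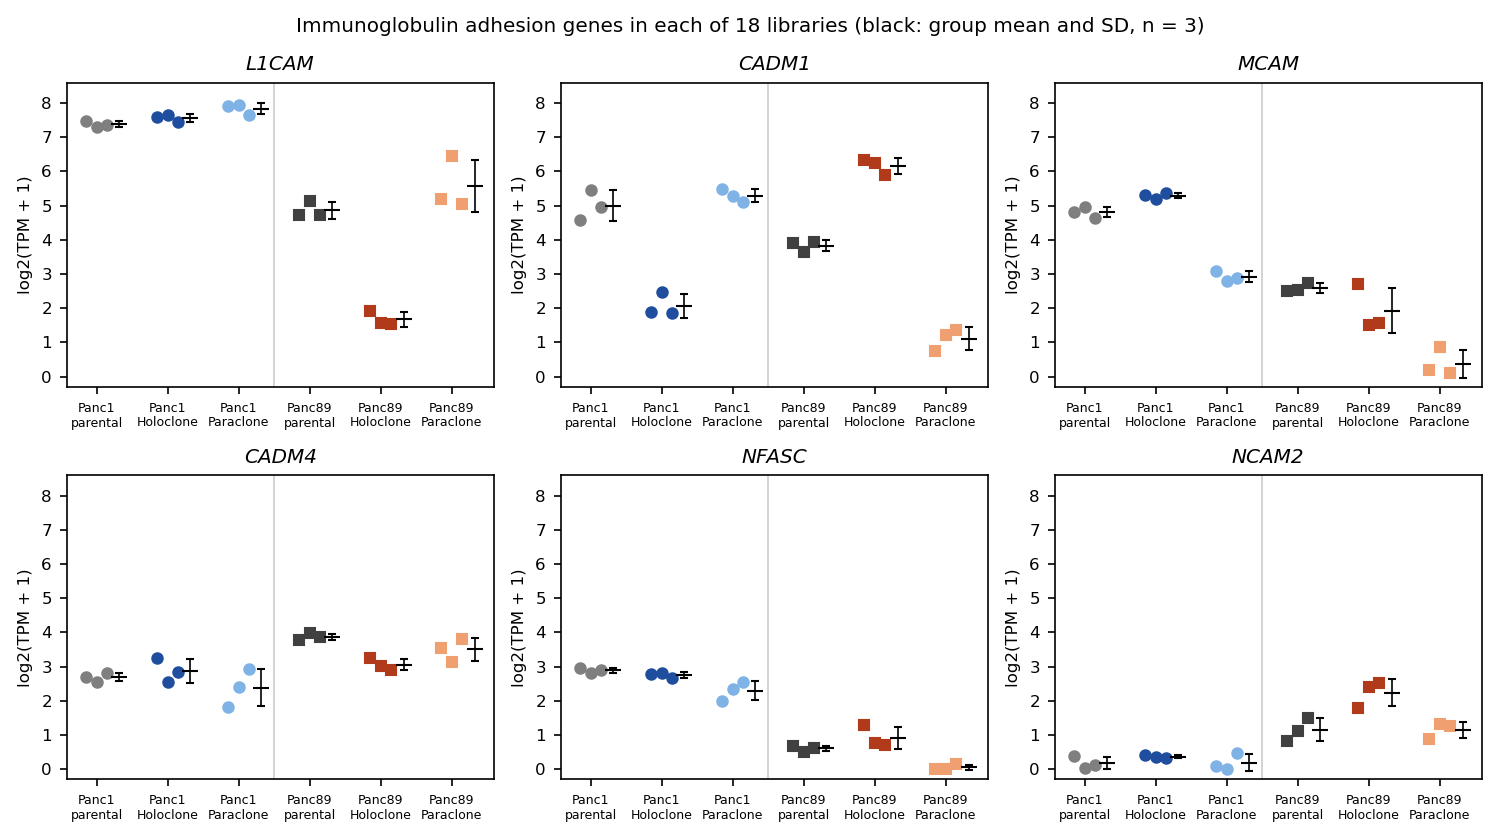
Expression of the 6 measured genes as log2(TPM + 1) on the y axis, in each library of the 6 cell variants on the x axis, with circles for Panc1 and squares for Panc89. Black marks give the group mean and SD (n = 3). *L1CAM* was lowest in the 3 Panc89 Holoclone libraries, and *CADM1* was lowest in Panc1 Holoclone and Panc89 Paraclone cells.

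*L1CAM* was high in all Panc1 variants and varied widely among the Panc89 variants. In parental Panc1 cells its level was 178, 156 and 164 TPM in the 3 replicates, in Panc1 Holoclone cells 192, 199.7 and 173.5 TPM, and in Panc1 Paraclone cells 239, 244 and 198.5 TPM. The Panc1 Holoclone replicates overlapped with those of both other Panc1 variants. In Panc89 cells, *L1CAM* was at 25.3, 34.3 and 25.5 TPM in the parental population, 2.80, 1.98 and 1.90 TPM in the Holoclone and 35.4, 85.9 and 32.4 TPM in the Paraclone. All 3 Panc89 Holoclone libraries lay below every other library of the series, whereas the Paraclone and parental ranges overlapped. The means were 2.23 ± 0.497 TPM in the Panc89 Holoclone and 51.2 ± 30.0 TPM in the Panc89 Paraclone (SD, n = 3), 23.0-fold apart. The wide SD came from Paraclone replicate 2, and without it the Holoclone minus Paraclone difference in log2(TPM + 1) moved from −3.88 to −3.45. In bulk RNA, fewer cells that express a gene and less of its RNA per cell cannot be told apart.

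Ordered by mean, *L1CAM* fell from Panc1 Paraclone (227 TPM) over Panc1 Holoclone (188.5 TPM) and parental Panc1 (166 TPM) to Panc89 Paraclone (51.2 TPM), parental Panc89 (28.4 TPM) and Panc89 Holoclone cells. Neighbours in this order overlapped within Panc1 and between the Panc89 Paraclone and the parental Panc89 cells. No Panc89 library reached the lowest Panc1 value.

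*NFASC*, which encodes neurofascin, an L1 family protein of the axon initial segment, was present at a low level in Panc1 and mostly below 1 TPM in Panc89. It was at 6.80, 6.01 and 6.41 TPM in parental Panc1 cells, 5.86, 6.02 and 5.36 TPM in the Panc1 Holoclone and 2.96, 4.11 and 4.82 TPM in the Panc1 Paraclone. Each Panc1 Paraclone value was below each Holoclone value, but the gap between the nearest replicates was small. In Panc89 it was at 0.597, 0.428 and 0.540 TPM in the parental cells, 1.43, 0.708 and 0.615 TPM in the Holoclone, and 0, 0.0108 and 0.103 TPM in the Paraclone. The Paraclone was thus the lowest variant in both lines. The other L1 family genes gave no comparison. *NRCAM*, encoding a neuronal adhesion protein, was listed at 0 in all 3 parental Panc1 libraries and ranged from 0.249 to 0.618 TPM in parental Panc89 cells. *CHL1*, the close homologue of *L1CAM*, was at 0 in both clones of Panc1 and in the Panc89 Holoclone.

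*CADM1* showed opposite orders of Holoclone and Paraclone in the 2 lines. In Panc1 it was at 22.8, 43.3 and 30.2 TPM in the parental cells, 2.69, 4.59 and 2.60 TPM in the Holoclone and 43.6, 37.5 and 33.4 TPM in the Paraclone. The Panc1 Holoclone thus lay below both other variants, which overlapped each other. In Panc89 it was at 14.1, 11.4 and 14.2 TPM in the parental cells, 80.1, 74.7 and 58.6 TPM in the Holoclone and 0.676, 1.32 and 1.59 TPM in the Paraclone. Here no 2 variants overlapped, and the parental cells lay between the clones. The mean of the Panc1 Paraclone was 11.6-fold that of the Panc1 Holoclone (38.2 ± 5.16 against 3.29 ± 1.13 TPM, SD, n = 3). The mean of the Panc89 Holoclone was 59.5-fold that of the Panc89 Paraclone (71.1 ± 11.2 against 1.20 ± 0.471 TPM, SD, n = 3). Over the 6 variants the order was Panc89 Holoclone, Panc1 Paraclone, parental Panc1, parental Panc89, Panc1 Holoclone and Panc89 Paraclone, and the only overlapping neighbours were the Panc1 Paraclone and parental Panc1 cells.

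*CADM4*, a nectin-like adhesion molecule of epithelia, varied much less. It was at 5.54, 4.89 and 6.04 TPM in parental Panc1 cells, 8.44, 4.80 and 6.16 TPM in the Panc1 Holoclone and 2.56, 4.24 and 6.61 TPM in the Panc1 Paraclone. These 3 groups overlapped. In Panc89 it was at 12.8, 14.7 and 13.5 TPM in the parental cells, 8.43, 7.13 and 6.50 TPM in the Holoclone and 10.6, 7.85 and 13.1 TPM in the Paraclone. Parental Panc89 cells were above all Panc1 libraries, and above the Panc89 Holoclone without overlap. *CADM3*, a brain member of the same family, ranged from 0 to 0.0625 TPM.

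*MCAM* was higher in Panc1 than in Panc89, and within both lines lowest in the Paraclone. In Panc1 it was at 27.2, 30.2 and 24.2 TPM in the parental cells, 38.8, 35.9 and 40.3 TPM in the Holoclone and 7.57, 5.96 and 6.34 TPM in the Paraclone. The 3 Panc1 groups did not overlap. In Panc89 it was at 4.62, 4.75 and 5.72 TPM in the parental cells, 5.48, 1.87 and 1.99 TPM in the Holoclone and 0.137, 0.806 and 0.0781 TPM in the Paraclone. The Panc89 Holoclone overlapped with the parental cells through its replicate 1 alone. The Holoclone mean was 5.79-fold the Paraclone mean in Panc1 (38.3 ± 2.26 against 6.62 ± 0.843 TPM, SD, n = 3). In Panc89 the means were 3.11 ± 2.05 TPM in the Holoclone and 0.341 ± 0.404 TPM in the Paraclone (SD, n = 3), with the Paraclone libraries all below 1 TPM. Without Panc89 Holoclone replicate 1, the difference in log2(TPM + 1) in that line moved from 1.55 to 1.17.

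*NCAM2*, a neural adhesion molecule of olfactory axons, was measurable in Panc89 cells. It was at 0.776, 1.17 and 1.84 TPM in parental Panc89 cells, 2.46, 4.27 and 4.74 TPM in the Panc89 Holoclone and 0.829, 1.503 and 1.38 TPM in the Panc89 Paraclone. All Holoclone values lay above the other 2 Panc89 variants, which overlapped. In Panc1 its level ranged from 0.0133 to 0.383 TPM. *NCAM1*, the better known gene of the pair and a marker of neural and natural killer cells, was highest in the Panc89 Holoclone, at 0.552, 0.269 and 0.224 TPM, a level too low for a comparison.

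Holoclone and Paraclone cells were then compared within each line, which asks whether the colony types differ in the same genes in both. Differences are Holoclone minus Paraclone in log2(TPM + 1) with the SE of a limma fit over all 18 libraries. In Panc1, *CADM1* was lower in the Holoclone (−3.21 ± 0.23), and *MCAM* (2.37 ± 0.26) and *NFASC* (0.46 ± 0.16) were higher. *CADM4* (0.49 ± 0.24), *NCAM2* (0.17 ± 0.21) and *L1CAM* (−0.26 ± 0.26) had overlapping replicates. In Panc89, *CADM1* (5.05 ± 0.23), *MCAM* (1.55 ± 0.26), *NCAM2* (1.09 ± 0.21) and *NFASC* (0.86 ± 0.16) were higher in the Holoclone and *L1CAM* was lower (−3.88 ± 0.26). *CADM4* differed by −0.44 ± 0.24, again with overlap. *MCAM* and *NFASC* were the genes of the set that lay higher in the Holoclone without overlap in both lines.

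**Figure D2:**
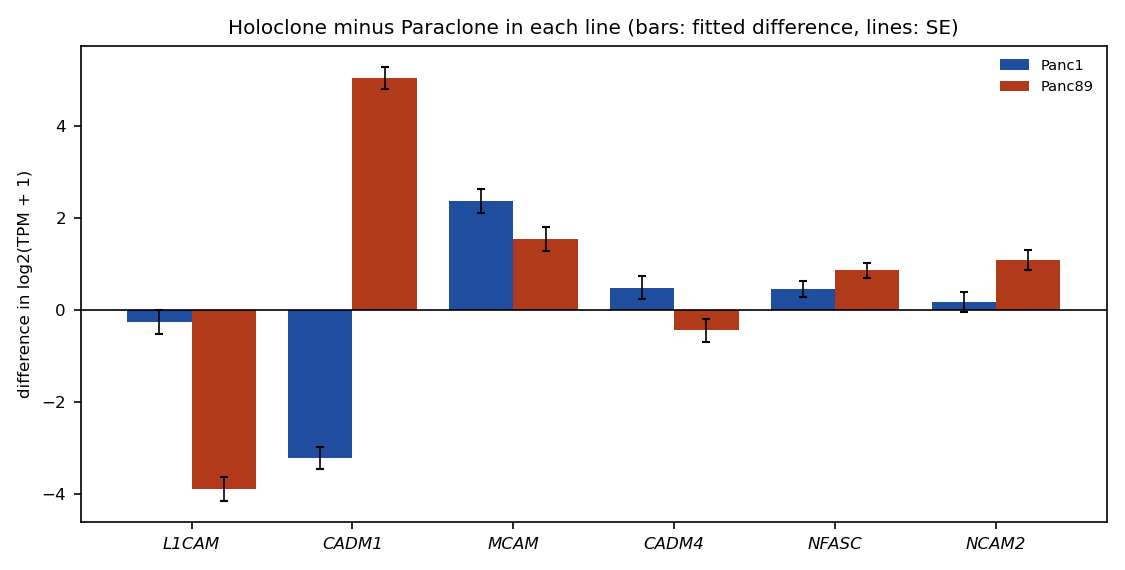
Holoclone minus Paraclone difference in log2(TPM + 1) for the 6 measured genes on the x axis, in Panc1 (blue) and Panc89 (red), with bars for the fitted difference and lines for its SE. *CADM1* pointed down in Panc1 (−3.21) and up in Panc89 (5.05), while *L1CAM* was far from 0 in Panc89 alone (−3.88).

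At a Benjamini-Hochberg adjusted p below 0.05, 3 of the 6 measured genes were called in Panc1, 2 higher and 1 lower, and 5 of 6 in Panc89, 4 higher and 1 lower. Over all 16093 genes, 37.3% were called in Panc1 (27.4% higher and 9.97% lower in the Holoclone) and 35.7% in Panc89 (22.4% higher and 13.3% lower). Since the set was chosen from these values, nothing is read from its counts. The excess of higher calls over all genes depended on the scaling of the libraries. Of the genes called, 73.3% were higher in the Panc1 Holoclone and 62.8% in the Panc89 Holoclone as deposited, but 46.8% and 49.1% after median-of-ratios scaling. The median difference of all genes, 0.19 in Panc1 and 0.09 in Panc89 as deposited, was 0.00 in both after that scaling. After that scaling the differences of *NFASC* and *CADM4* in Panc1 were 0.22 and 0.25. The call of *NFASC* in Panc1 was lost under this scaling and under most other settings, and those of *CADM1* and *MCAM* in both lines and of *L1CAM* in Panc89 were kept under every setting tried. All settings reuse the libraries on which the set was chosen, so a kept call is no test of these genes.

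The difference of the Holoclone against Paraclone changes (Panc89 minus Panc1) was 8.26 ± 0.33 for *CADM1*, −3.62 ± 0.37 for *L1CAM*, −0.93 ± 0.34 for *CADM4* and 0.92 ± 0.30 for *NCAM2* in log2(TPM + 1). These 4 of the 6 measured genes were called, 2 higher and 2 lower, in a comparison in which 35.1% of all genes were called (14.8% higher and 20.4% lower). Nothing is read from this count, since the set was chosen from these values and *NCAM2* entered the fit through Panc89 alone. *MCAM* (−0.82 ± 0.37) and *NFASC* (0.40 ± 0.23) were not called, and the value for *MCAM* turned to 0.55 when 0.1 in place of 1 was added to the TPM values before taking logs. With that pseudocount *CADM4* and *NCAM2* lost the call and *NFASC* (2.32) gained it. *CADM4* also lost it with no filter, under both other scalings, with a replicate block and with the 4 groups compared fitted alone, and *NFASC* gained it under median-of-ratios scaling (0.62). Both *CADM4* and *NCAM2* lost the call without Panc1 Holoclone replicate 3, Panc89 Holoclone replicate 2 or 3, or Panc89 Paraclone replicate 1. *CADM4* alone lost it without Panc1 Holoclone replicate 1, Panc1 Paraclone replicate 1 or 2, or Panc89 Paraclone replicate 3, and *NCAM2* alone without Panc1 Paraclone replicate 3. *MCAM* gained the call without Panc89 Holoclone replicate 1. *CADM1* and *L1CAM* kept it under every setting tried, which again reuses the libraries on which they were chosen and is no test.

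**Figure D3:**
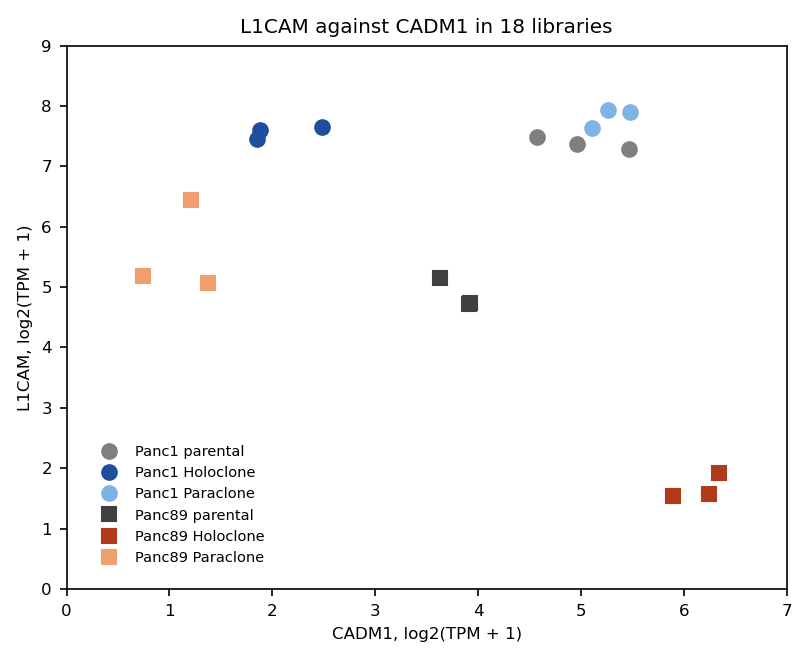
*L1CAM* on the y axis against *CADM1* on the x axis, both as log2(TPM + 1), with a point for each of the 18 libraries coloured by cell variant. The Panc89 libraries run from high *L1CAM* with low *CADM1* (Paraclone) to low *L1CAM* with high *CADM1* (Holoclone), and the Panc1 libraries stay above 7 for *L1CAM* at any level of *CADM1*.

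The 2 leading genes moved against each other within Panc89. Across its 9 libraries, Pearson's r between *L1CAM* and *CADM1* in log2(TPM + 1) was −0.89, across the 9 Panc1 libraries it was 0.16, and across all 18 it was −0.31. The points fall into the 3 cell variants of each line and are not independent, so these values describe the libraries and carry no p. *NFASC* and *MCAM* moved together, with r of 0.76 in Panc1 and 0.78 in Panc89. *NFASC* and *CADM1* had r of 0.93 in Panc89 and −0.36 in Panc1.

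Each clone was also compared with its parental population. The paper describes the parental lines as heterogeneous, so a difference does not show that a clone changed from its founder cell. The comparisons of both clones of a line share the parental libraries. For *CADM1*, the Panc1 Holoclone was far below the parental cells (−2.93 ± 0.23 in log2(TPM + 1)) and the Panc1 Paraclone close to them (0.28 ± 0.23). In Panc89 both clones differed from the parental cells, the Holoclone being higher (2.33 ± 0.23) and the Paraclone lower (−2.71 ± 0.23). For *L1CAM*, the Panc89 Holoclone was lower than the parental cells (−3.19 ± 0.26), while the other 3 clones differed from theirs by 0.18 to 0.70. The *L1CAM* value of 0.70 in the Panc89 Paraclone fell to 0.26 without its replicate 2. For *MCAM* it was the Paraclone that lay low, by −1.89 ± 0.26 in Panc1 and −2.21 ± 0.26 in Panc89, whereas the Holoclones differed by 0.49 ± 0.26 and −0.66 ± 0.26. *NFASC* was lower than in parental cells in both Paraclones (−0.59 ± 0.16 in Panc1 and −0.55 ± 0.16 in Panc89). Its call was lost in Panc1 with a pseudocount of 0.1, under both other scalings and with the groups compared fitted alone, and in Panc89 with a replicate block. Leaving out parental Panc1 replicate 1 or Panc1 Paraclone replicate 1 also ended the Panc1 call, and leaving out parental Panc89 replicate 1 or 3 or Panc89 Paraclone replicate 1 the Panc89 call. *NCAM2* was higher in the Panc89 Holoclone (1.09 ± 0.21). *CADM4* was lower in the Panc89 Holoclone (−0.81 ± 0.24), a call lost without parental Panc89 replicate 2 or 3 or Panc89 Holoclone replicate 2 or 3.

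**Figure D4:**
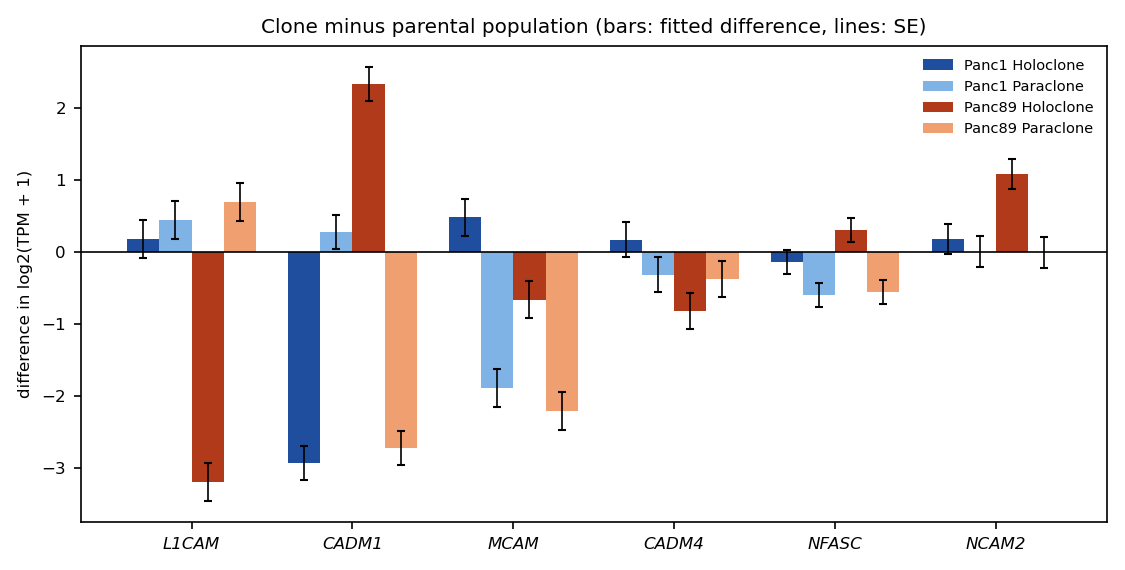
Difference of each clone from its parental population in log2(TPM + 1) for the 6 measured genes on the x axis, with bars for the fitted difference and lines for its SE. The Panc1 Holoclone (dark blue) and the Panc89 Paraclone (light orange) were the clones below their parental cells for *CADM1*, at −2.93 and −2.71.

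Of the 6 measured genes, 1 was called in the Panc1 Holoclone (10.9% of all genes), 2 in the Panc1 Paraclone (28.6%), 4 in the Panc89 Holoclone (24.7%) and 3 in the Panc89 Paraclone (19.4%). In Panc89 the parental mean lay between the means of the clones for *L1CAM*, *CADM1*, *NFASC* and *NCAM2*, and above both for *CADM4* and *MCAM*. For *NCAM2* it was close to the Paraclone mean (1.26 against 1.24 TPM). Only for *CADM1* and *NFASC* did the parental Panc89 replicates overlap with neither clone. In Panc1 the parental mean lay between those of the clones for *CADM1*, *CADM4* and *MCAM*, above both for *NFASC*, and below both for *L1CAM* and *NCAM2*.

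The parental populations, which compare the epithelial with the mesenchymal model, differed in all 6 measured genes without overlap. Each model is a single line, from a primary tumour or from a lymph node metastasis. Epithelial or mesenchymal state therefore cannot be told apart from the line or its site of origin. Parental Panc89 cells were lower than parental Panc1 cells in *L1CAM* (−2.52 ± 0.26 in log2(TPM + 1), 28.4 against 166 TPM), *NFASC* (−2.28 ± 0.16), *MCAM* (−2.22 ± 0.26) and *CADM1* (−1.18 ± 0.23). They were higher in *CADM4* (1.18 ± 0.24) and *NCAM2* (0.97 ± 0.21). All 6 were called, 2 higher and 4 lower, in a comparison in which 66.0% of all genes were called (27.5% higher and 38.5% lower) and the median difference of all genes was −0.18. Nothing is read from this count either, since *NCAM2* passed the filter through Panc89 libraries alone, where it was higher. Median-of-ratios scaling moved that median to 0.01 and the share of higher genes among those called from 41.6% to 51.6%, and left *L1CAM* at −2.28 and *CADM1* at −0.95. Between the Holoclones of the 2 lines, *L1CAM* was lower in Panc89 by −5.89 ± 0.26 and *CADM1* higher by 4.09 ± 0.23. Between the Paraclones, both *L1CAM* (−2.27 ± 0.26) and *CADM1* (−4.17 ± 0.23) were lower in Panc89. The line with more *CADM1* therefore differed between the Holoclone pair and the Paraclone pair, and the line with more *L1CAM* did not. Each clone line came from a single cell, so colony type and clone cannot be told apart here.

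The genes whose levels followed each member most closely were named from Pearson's r over the 18 libraries, as a description of likeness across the same 6 variants. For *L1CAM* they were *ME3*, a mitochondrial malic enzyme (r = 0.98), the membrane protein gene *EMP3* (0.97) and *GRAMD1A*, encoding a sterol transporter (0.96). *ME3* had the low point of *L1CAM*, with 1.45 ± 0.0941 TPM in the Panc89 Holoclone against 10.3 ± 1.04 TPM in the Panc89 Paraclone (SD, n = 3). For *CADM1* they were *ICAM5* (0.91), itself an immunoglobulin adhesion gene, *APOBEC3B*, a cytidine deaminase (0.90), and *NAP1L5* (0.90). *ICAM5* showed the reversed order of *CADM1*, at 6.71 TPM in the Panc1 Holoclone and 26.5 TPM in the Panc1 Paraclone, and at 24.4 TPM in the Panc89 Holoclone and 5.52 TPM in the Panc89 Paraclone. For *MCAM* they were *TIRAP*, an adaptor of Toll-like receptors (0.98), the small GTPase gene *RAB15* (0.97) and *ARHGEF12* (0.97). *ARHGEF12* and *TIRAP* lie on chromosome 11 as *MCAM* does, at chr11:120336413-120489937 and chr11:126282497-126298845. For *CADM4* they were *MBTD1* (0.94), *TOB1*, an antiproliferative gene (0.92), and *MYLIP*, a ubiquitin ligase of lipoprotein receptors (0.91).

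The 20 tested genes nearest to each member were looked at to see whether whole regions moved. Around *CADM1*, within 1.99 Mb, their median Holoclone minus Paraclone difference was 0.32 in Panc1 and 0.33 in Panc89, against 0.19 and 0.09 over all genes and −3.21 and 5.05 for *CADM1*. Around *MCAM*, within 0.319 Mb, it was 0.42 in Panc1 and 0.47 in Panc89, against medians of 0.19 and 0.09 over all genes and 2.37 and 1.55 for *MCAM*. In Panc1 the lowest of these neighbours was at −0.12 and the highest at 2.28. In Panc89 they lay between −0.01 and 1.74, the highest of them above *MCAM*. Around *L1CAM*, within 0.402 Mb, the neighbours had a median of −0.04 in the Panc89 clones, ranging from −1.31 to 1.63. Between the parental lines these *L1CAM* neighbours had a median of −1.27, ranging from −5.37 to −0.34, so all 20 of them were lower in parental Panc89 cells, as *L1CAM* was (−2.52).

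Binding partners, regulators, sheddases and other immunoglobulin adhesion genes were examined as 6 lists of 118 genes, 95 of which were tested. The lists were written with earlier results of these libraries known. Adjusted p-values of list genes therefore come from the fit over all genes and are no independent test of the lists. Between Holoclone and Paraclone cells, 49 were called in Panc1 (22 higher and 27 lower in the Holoclone) and 48 in Panc89 (34 higher and 14 lower), beside the 37.3% and 35.7% of all genes. The median difference over the 95 genes was 0.00 in Panc1 and 0.09 in Panc89, against 0.19 and 0.09 over all genes. In both lines 24 were called, 14 of them in the same direction. The difference of the changes was called for 53, 35 higher and 18 lower, beside 35.1% of all genes. Between the parental lines 75 were called, 36 higher and 39 lower in Panc89, beside 66.0% of all genes. Against parental cells, 20 were called in the Panc1 Holoclone (10.9% of all genes), 40 in the Panc1 Paraclone (28.6%), 43 in the Panc89 Holoclone (24.7%) and 42 in the Panc89 Paraclone (19.4%).

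**Figure D5:**
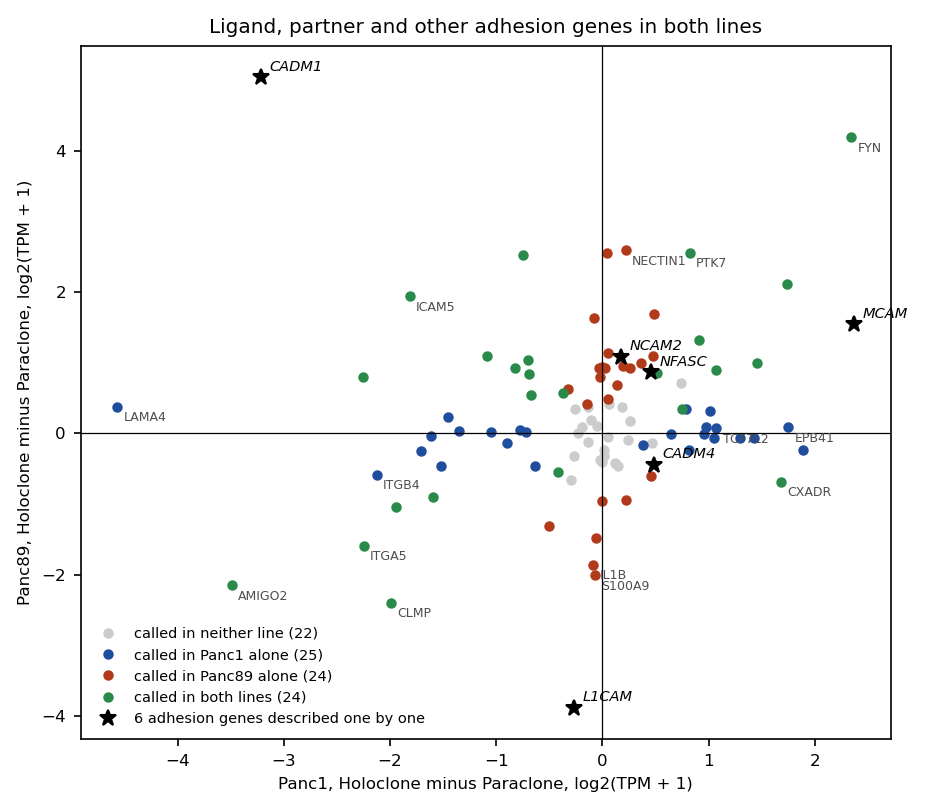
Holoclone minus Paraclone difference in log2(TPM + 1) in Panc1 (x axis) and Panc89 (y axis) for 95 ligand, partner, regulator and other adhesion genes (dots, coloured by the lines in which they were called) and the 6 genes described one by one (stars). Of the dots, 24 were called in both lines, 25 in Panc1 alone and 24 in Panc89 alone. *CADM1* sits in the upper left and *L1CAM* at the bottom, outside the cloud of dots.

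Among partners and sheddases of the L1 family, 8 of 19 tested genes were called between the Panc1 clones (2 higher and 6 lower in the Holoclone) and 11 of 19 between the Panc89 clones (7 higher and 4 lower). The median of this list was −0.08 in Panc1 and 0.02 in Panc89. The integrin subunit gene *ITGA5* fell in the Holoclone of both lines, by 2.25 ± 0.18 in Panc1 (adjusted p = 1.58e-07) and by 1.59 in Panc89 (adjusted p = 6.57e-06). *ADAM10*, the protease best known to shed L1CAM, was higher in the Panc89 Holoclone (0.49, adjusted p = 0.000713) and differed by 0.05 in Panc1 (adjusted p = 0.71). Of 8 regulators reported for *L1CAM*, 5 were called in Panc1 (3 higher and 2 lower) and 6 in Panc89 (4 higher and 2 lower). *IL1B*, a cytokine known to induce *L1CAM* in pancreatic cells, fell in the Panc89 Holoclone by 1.86 ± 0.44 (adjusted p = 0.00351), with 66.6 ± 18.5 TPM there and 310 ± 243 TPM in the Paraclone (SD, n = 3). That call was lost when the groups compared were fitted alone. In Panc89, Holoclone against Paraclone means went the other way for *SNAI2* (23.0 against 13.0 TPM), *TGFB1* (45.9 against 31.7 TPM), *LEF1* (8.84 against 0.635 TPM) and *REST* (17.9 against 14.0 TPM). These were higher in the Holoclone, where *L1CAM* was lowest. *ZEB1* was lower there (0.156 against 1.47 TPM). *TCF7L2*, a transcription factor of Wnt signalling, rose in the Panc1 Holoclone by 1.07 ± 0.15 (adjusted p = 4.98e-05). *ZEB1* was at 17.2 ± 1.21 TPM in parental Panc1 and 0.0519 ± 0.0210 TPM in parental Panc89 cells (SD, n = 3), a difference of −4.11 ± 0.26 (adjusted p = 1.6e-09). *IL1B* was listed at 0 in parental Panc1 and at 44.3 ± 9.27 TPM in parental Panc89 cells. *ZEB1* passed the filter only with Panc1 libraries and *IL1B* only with Panc89 libraries, where each was higher. The p for *ZEB1* is therefore no test of the line difference.

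Among CADM partners, 9 of 13 tested genes were called between the Panc1 clones (5 higher and 4 lower) and 3 of 13 between the Panc89 clones (all 3 higher), with medians of 0.36 and 0.08. *EPB41*, encoding a protein 4.1 that binds the tail of CADM1, rose in the Panc1 Holoclone by 1.75 ± 0.23 (adjusted p = 2.13e-05), where *CADM1* was lower, and differed by 0.08 in Panc89 (adjusted p = 0.817). The difference of its changes was −1.67 ± 0.32 (adjusted p = 0.000799). *ITGB4*, the integrin subunit of hemidesmosomes, fell in the Panc1 Holoclone by 2.12 ± 0.31 (adjusted p = 7.62e-05). *MPP1*, a scaffold protein of the membrane skeleton, was at 43.4 TPM in parental Panc1 and 0.211 TPM in parental Panc89 cells (−5.19 ± 0.17, adjusted p = 4.4e-13). It passed the filter through Panc1 alone, so this p is no test of the line difference.

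Among ligands and partners of MCAM, 5 of 7 tested genes were called between the Panc1 clones (1 higher and 4 lower) and 3 of 7 between the Panc89 clones (all 3 lower), with medians of −0.78 and −0.46. *LAMA4*, the laminin chain that binds MCAM, fell in the Panc1 Holoclone by 4.57 ± 0.23 (adjusted p = 5.43e-10), with 3.93 ± 1.58 TPM in the Holoclone and 113 ± 12.4 TPM in the Paraclone (SD, n = 3). *MCAM* was higher where *LAMA4* was lower in this line. In Panc89 *LAMA4* differed by 0.38 (adjusted p = 0.219), and the difference of its changes was 4.95 ± 0.32 (adjusted p = 2.02e-08). It reached at most 0.933 TPM in the Panc89 Holoclone and 0.738 TPM in the Panc89 Paraclone, so the latter value rests on the Panc1 clones. *S100A9*, a calcium-binding alarmin, fell in the Panc89 Holoclone by 2.01 ± 0.24 (adjusted p = 9.75e-06), and its changes differed by −1.94 ± 0.34 (adjusted p = 0.000368). It was listed at 0 in parental Panc1 and at 377 ± 45.0 TPM in parental Panc89 cells (SD, n = 3). *S100A9* passed the filter through Panc89 alone, so the p for its difference of changes is no test between the lines.

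The list of NCAM modification and partners had 4 tested genes, of which 2 were called in Panc1 (1 higher and 1 lower) and 3 in Panc89 (all 3 higher), with medians of 0.13 and 0.87. The kinase gene *FYN*, which signals from NCAM, rose in the Holoclone of both lines, by 2.34 ± 0.37 in Panc1 (adjusted p = 0.000142) and 4.20 ± 0.37 in Panc89 (adjusted p = 4.28e-07), and the changes differed by 1.86 ± 0.52 (adjusted p = 0.012). *ST8SIA4*, encoding a polysialyltransferase, fell in the Panc1 Holoclone by 2.26 (adjusted p = 1.14e-09) and rose in the Panc89 Holoclone by 0.80 (adjusted p = 8.63e-05). It passed the filter through the Panc1 Paraclone alone (5.23 to 6.00 TPM), where it was high. In the Panc89 Holoclone it reached at most 0.949 TPM, so the Panc89 difference rests on low levels.

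Of 44 other immunoglobulin adhesion genes tested, 20 were called in Panc1 (10 higher and 10 lower) and 22 in Panc89 (17 higher and 5 lower), with medians of 0.03 and 0.20. *ICAM5* fell by 1.81 in the Panc1 Holoclone (adjusted p = 0.000153) and rose by 1.94 ± 0.29 in the Panc89 Holoclone (adjusted p = 8.55e-05), with a difference of the changes of 3.75 ± 0.41 (adjusted p = 4.33e-06). *CXADR*, the coxsackievirus and adenovirus receptor of tight junctions, went the other way, rising by 1.68 ± 0.13 in the Panc1 Holoclone (adjusted p = 8.75e-08) and falling by 0.69 in the Panc89 Holoclone (adjusted p = 0.000667). Its changes differed by −2.37 ± 0.18 (adjusted p = 1.19e-07). *NECTIN1*, an adherens junction gene, rose in the Panc89 Holoclone by 2.60 ± 0.17 (adjusted p = 1.62e-08), from 42.8 to 262 TPM, and its changes differed by 2.38 ± 0.24 (adjusted p = 2.03e-06). *PTK7*, a pseudokinase of planar cell polarity, rose there by 2.56 ± 0.30 (adjusted p = 9.42e-06). *AMIGO2*, a leucine-rich repeat adhesion gene, fell in both Holoclones, by 3.49 ± 0.25 in Panc1 (adjusted p = 3.75e-08) and 2.15 ± 0.25 in Panc89 (adjusted p = 8.07e-06). *CLMP*, a junction protein gene, fell in the Panc89 Holoclone by 2.40 ± 0.21 (adjusted p = 4.35e-07). Between the parental lines, *PECAM1* (5.86 ± 0.26, adjusted p = 1.62e-11) and *MPZL2* (5.37 ± 0.36, adjusted p = 2.53e-09) were higher in Panc89. *JAM3* (−5.39 ± 0.10, adjusted p = 1.18e-15) and *SDK1* (−4.41 ± 0.16, adjusted p = 1.77e-12) were lower. *PECAM1*, *MPZL2*, *JAM3* and *SDK1* each passed the filter only through the line in which they were higher. Their adjusted p is therefore no test of the line difference.

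Since several of these adhesion genes are neural or endothelial markers, defining markers of other cell types were checked in every variant. A marker was counted as above 1 TPM in a variant if any of its libraries reached that level. All 5 epithelial carcinoma markers were above 1 TPM in all 6 variants, with summed levels of 2590 to 5020 TPM. The 4 mesenchymal-like markers summed to 2050 to 5060 TPM in Panc1, nearly all of it *VIM*, and to 5.36 to 31.6 TPM in Panc89. In each Panc1 variant 3 of the 4 were above 1 TPM, *VIM* and *ZEB1* among them, so either *CDH2* or *FN1* was not. The highest marker in Panc89 was *FN1* in parental (4.32 TPM) and Paraclone cells (23.8 TPM) and *CDH2* in the Holoclone (11.7 TPM). The line difference of the sums is thus that of *VIM*, and *L1CAM*, *MCAM* and *NFASC* were also higher in Panc1. Of 9 neuronal markers, 3 to 5 were above 1 TPM in a variant. Their sum was 174 to 288 TPM in Panc1 and 23.2 to 45.2 TPM in Panc89, most of it *TUBB3* in Panc1, and the neuron-specific *ELAVL4* was listed at 0 in every library of 5 of the 6 variants. Of 5 glial markers, *MBP* made up nearly all of the sum and *SOX10* was at 0 throughout. The 6 endothelial markers summed to at most 1.76 TPM in Panc1, and to 55.2 to 69.1 TPM in parental Panc89 cells, up to 64.7 TPM of it *PECAM1*. The fibroblast sum, 1.10 to 27.4 TPM, was mainly *COL1A1*, and the leukocyte sum, 13.6 to 151 TPM, mainly *CD68*. The part of these markers in the differences above was not tested.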

How the data were processed

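The 18 libraries were poly(A) RNA of Panc1 and Panc89 cell variants, prepared with a stranded kit. The authors quantified reads with kallisto 0.46.1 against GRCh38 and summarised transcripts to genes with tximport. They deposited log2 values, log2(TPM + 1), with a pseudocount of 1, for 40266 symbols. All 18 columns were matched to samples by their labels. Values were used as deposited, and TPM was recovered by reversing the log. The depth per library is unknown, so no counting interval was given. A gene was fitted if 3 or more libraries reached 1 TPM (16093 genes), in R 4.3.3 with limma 3.58.1 (lmFit, eBayes with trend), estimating 6 group means and a variance common to all libraries. P-values were adjusted by Benjamini-Hochberg over all tested genes with a threshold of 0.05, and they measure the spread between cultures. The fit was tested on simulated data.

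The 10 genes and the 6 lists were chosen with earlier results of these data known. Named list genes were the 4 highest and 4 lowest called differences whose higher group averaged 10 TPM or more, with replicates that did not overlap except for the difference of changes. *ADAM10*, *ST8SIA4*, *SNAI2*, *TGFB1*, *LEF1*, *REST*, *COL1A1*, *CD68*, the second-line values of named genes and the correlations were picked out after their values were seen. The 3 genes most like each member with 10 TPM in a group had the highest Pearson's r. Alternatives were a pseudocount of 0.1, no filter, a filter of 9 libraries, upper quartile and median-of-ratios scaling, a replicate block, fits restricted to the compared groups, and leaving out each library. Positions came from GENCODE and promoters from RefSeq. Protein sequences were not used here.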

Additional observations from a re-analysis of the deposited data

Results flagged for a closer look

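The change from Paraclone to Holoclone differed between the lines, by the interaction term of the fit, for 4 of the 6 measured adhesion genes and 53 of the 95 tested list genes, beside 35.1% of all genes. Nothing is read from these counts, since the genes and the lists were chosen with results of these libraries known. The values of the 4, and of 8 of the 53 that the rule for named genes picked, are given here as Panc89 minus Panc1 in log2(TPM + 1). Of the genes selected on these data, *CADM1* gave 8.26, with the Holoclone lower in Panc1 and higher in Panc89. *L1CAM* gave −3.62, its Panc89 Holoclone being the lowest of the variants. *NCAM2* gave 0.92 and rests on levels of 0.829 TPM or more in the Panc89 clones and 0.383 TPM or less in Panc1. *CADM4* gave −0.93, with overlapping replicates in each line.

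Of the partner and adhesion genes, *LAMA4* gave 4.95, *ICAM5* 3.75, *NECTIN1* 2.38 and *FYN* 1.86. In the other direction *CXADR* gave −2.37, *S100A9* −1.94, *IL1B* −1.78 and *EPB41* −1.67. *S100A9* and *IL1B* were at or near 0 in all Panc1 variants, so their values rest on the Panc89 clones. *LAMA4* reached at most 0.933 TPM in the Panc89 clones, so its value rests on the Panc1 clones. No outlier check was made, as groups of 3 libraries are too small for it.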

How the results depend on the processing

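Of the counts of called genes, 211 recomputed values stayed within 1.5 times the main count and 9 did not, and no difference that had been called changed sign. In the Panc1 Paraclone against parental Panc1, the members called went from 2 to 1 with a pseudocount of 0.1 and with upper quartile scaling (under median-of-ratios scaling and with the groups compared fitted alone *NFASC* was also lost, but *L1CAM* was gained), and to between 1 and 2 when libraries were left out, *NFASC* being lost without parental Panc1 replicate 1 or Panc1 Paraclone replicate 1. For the difference of changes, the members called were 4, and between 2 and 5 with libraries left out. Both *CADM4* and *NCAM2* were lost without Panc1 Holoclone replicate 3, Panc89 Holoclone replicate 2 or 3, or Panc89 Paraclone replicate 1. *CADM4* (−0.66 to −1.20 with libraries left out) also lost its call without Panc1 Holoclone replicate 1, Panc1 Paraclone replicate 1 or 2, or Panc89 Paraclone replicate 3, and *NCAM2* (0.77 to 1.14) without Panc1 Paraclone replicate 3. *NFASC* was lost between the Panc1 clones without any of their libraries except Panc1 Paraclone replicate 3 (0.31 to 0.58), and in the Panc89 Paraclone against parental cells without parental replicate 1 or 3 or Paraclone replicate 1 (−0.52 to −0.60 over the libraries). *CADM4* was lost in the Panc89 Holoclone against parental cells without parental replicate 2 or 3 or Holoclone replicate 2 or 3 (−0.74 to −0.90). *NCAM2* had no value under the filter of 9 libraries, which it did not pass. Scaling added the call of *MCAM* (−0.75) in the Panc89 Holoclone against parental cells, and median-of-ratios scaling that of *L1CAM* in the Paraclones against parental cells of Panc1 (0.69) and Panc89 (0.74). List genes called in the Panc1 Holoclone against parental Panc1 were 20, and between 13 and 19 with libraries left out, lowest without Panc1 Holoclone replicate 3. *IL1B* lost its call for the difference of changes under 14 settings (values from −1.15 to −1.81). The cause was not tested.

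Replicate numbers did not pair the samples: over 18 pairs of same-numbered libraries, deviations correlated from −0.32 to 0.19, with 3 pairs over 0.1. With a replicate block within each line, 2 members were called between the Panc1 clones (3 without it), 2 in the Panc89 Paraclone against parental cells (3) and 3 for the difference of changes (4), and a block over both lines, added after seeing the data, left 6 members and 72 list genes called between the parental lines. The unknown depth limits what can be said of genes below 1 TPM.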
